A study of Mus musculus with 8 samples.

Results

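The liver libraries of mice given a western diet, CCl4 or both were treated as 1 set, 5 of the 8 libraries in all, and compared with the 3 libraries of mice given a normal diet and oil, to find the changes present in each of the 5. In the treated set, 2 libraries came from livers given western diet + oil, 2 from livers given normal diet + CCl4, and a single library from western diet + CCl4. All mice were wild-type males of the strain C57BL/6N. The normal diet was chow with tap water, and the western diet was a high-fat diet with drinking water that held 23.1 g/L fructose and 18.9 g/L glucose. Every group received a weekly injection into the peritoneum, of CCl4 or of corn oil. CCl4 harms the liver once P450 enzymes of the hepatocytes have turned it into a radical. The dose of CCl4, the length of feeding, the age of the mice and any measure of injury in single livers are not stated in the labels. The labels do not say whether the libraries came from separate animals, so p-values weigh a difference against a spread that may be technical.

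As background, hepatocytes make most plasma proteins, oxidize and export fatty acids, synthesize cholesterol and bile acids and, in male mice, secrete large amounts of major urinary proteins under the pulsatile growth hormone of males. Sterol synthesis is driven by the transcription factor SREBP2, which is held back when membranes hold enough sterol. Between the hepatocytes lie the resident macrophages (Kupffer cells), the sinusoidal endothelium and the stellate cells, which store vitamin A and, once activated, make collagen. Fat overload and toxic injury are both known to draw in macrophages and to activate stellate cells.

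Values were deposited as FPKM, fragment counts scaled to transcript length and to the library's total, and the sequencing depth is unknown. The tissue label was borne out by albumin: Alb stood at 21307, 21070.0 and 18436 FPKM in the controls, 23941 and 15558 with the western diet, 38054 and 32099 with CCl4 and 20852 with both. Major urinary protein genes (Mup followed by a number) took 15.6%, 20.6% and 30.6% of the FPKM sum in the controls. They took 8.16% and 8.61% with the western diet, 2.33% and 3.98% with CCl4 and 7.06% with both. The share was 22.3% ± 7.64 (SD, n = 3) in the controls and 6.03% ± 2.75 (n = 5) in the treated libraries, with no overlap (two-sided exact permutation test, p = 0.0179, the smallest that 56 splits can give). FPKM is relative to the library, and over all 11514 tested genes the log2 fold change had a median of 0.22. That median was 0.34 after scaling to a common sum, 0.12 after removal of the Mup genes and scaling of the rest to a common sum, and -0.00166 with median-of-ratios scaling, which centres each library on the typical gene. Changes are therefore to be read against a median that itself moves with the scaling. The FPKM sum was 600060 ± 12603 (SD) in the controls and 543750 ± 22157 in the treated libraries (exact permutation test, p = 0.0179). Scaling to a common sum thus raises treated values relative to the controls. Genes above 0 FPKM numbered 13056 ± 458 and 14102 ± 548 (exact permutation test, p = 0.0714).

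Far more of the tested genes rose than fell. Genes with at least 1 FPKM in at least 2 of the 8 libraries were tested with limma on log2(FPKM + 1), a scale that understates changes of low genes, at a Benjamini-Hochberg adjusted p below 0.05. Of 11514 genes, 710 rose (6.17%) and 63 fell (0.547%). A gene was counted as shared when it also had all 5 treated libraries above the highest control, or all 5 below the lowest. By that rule 691 genes were shared and higher (6%) and 60 were shared and lower (0.521%), 751 in all (6.52%). The filter can admit a gene through the treated libraries alone. Controls were all below 1 FPKM for 1059 tested genes, and treated libraries for 30. All controls were below 1 FPKM for 177 of the 691 higher genes. All treated libraries were below 1 FPKM for 9 of the 60 lower genes. At a mean of at least 5 FPKM, 250 and 32 genes were shared, so the counts depend on the filter. Without the test, the 5 treated libraries lay above all controls for 2467 genes (21.4%) and below them for 163 (1.42%). On the log2(FPKM + 1) scale the increases were mostly modest, with a median log2 fold change of 0.91. The median was 0.49 in the weakest library of each gene. In 43 genes (0.373%) every treated library was at least 1 on the log2 scale above the control mean, and in 26 genes (0.226%) every one was at least 1 below. On the same scale the decreases were larger, with a median of -1.41. With a pseudocount of 0.1 the 43 and 26 genes became 220 and 28. The comparison of sizes thus depends on the pseudocount. Of the 60 lower genes 17 lie on chromosome 4, where most Mup genes are, against 763 of the 11514 tested genes. In bulk tissue, fewer cells of a type and less RNA per cell cannot be told apart.

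Counts of shared genes moved with the scaling and with single libraries. Median-of-ratios scaling left 53 shared genes higher (0.46%) and 34 lower (0.295%), so that 60.9% of the genes that passed were higher in place of 91.8%. A common sum gave 2053 higher (17.8%) and 67 lower (0.582%), 96.4% of the passing genes being higher, and removal of the Mup genes gave 87 (0.757%) and 23 (0.2%), 79.1% being higher. All 691 higher and all 60 lower genes kept their direction in each scaling that held them. Without control library 1, 2 or 3, the shared genes numbered 3, 13 and 16 higher and 5, 6 and 9 lower. Without western diet library 1 or 2 they numbered 89 and 55 higher and 26 and 16 lower, and without the library given both 63 and 18. Without CCl4 library 1 there were 160 higher and 26 lower, whereas without CCl4 library 2 there were 1498 and 121. CCl4 library 2 was the nearest to the controls for 455 of the 691 higher genes, whose median change there was 0.54, against 0.85 and 1.00 with the western diet, 1.08 in CCl4 library 1 and 0.89 with both.

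In the deposited values and in each of the 3 other scalings that held them, 75 genes were shared, 52 higher and 23 lower. Of these, 46 passed in every fit without 1 treated library. In the text below, "in every scaling" means this set. Among the genes named here, Ly6d, Tceal8, Slc16a5, Hsd3b5, Cyp7b1 and Cyp2u1 were those that passed without any 1 of the 8 libraries. The genes named follow a rule given in the processing notes. Outside it, and chosen after their values were seen, are Nudt7, Serpina1e, Mup3, Mup12, Mup16, Mup20, Msmo1, Hsd17b7, Sqle, Srebf2, Cpt1a, Hadh, Acadm, Plin5, Cd5l, Timd4, H2-Ab1 and Cd44. Among the genes named, Slco1a1, Cd74, Pkm, Abcb4, Apoc2 and Zfp125 overlap other expressed genes on the same strand, so that fragments may be shared. Elovl3, Enho, Slc16a5, Ccnd1, Csf1r, Col4a1, Lamp1, Pfkfb1, Gapdh, Cyp2a22, Igf1, Apoa4, Ctsb, Fdft1, Timp1 and Hnf4a overlap expressed genes on the opposite strand, and it is not stated whether strand was used in counting. The values of all these genes are uncertain. At the threshold, the haematopoietic adaptor Sla (limma adjusted p = 0.0499), with 0.335 to 0.486 FPKM in the controls and 0.585 to 2.72 in the treated libraries, was just inside, and the integrin Itga9 (limma adjusted p = 0.0501), with 0.491 to 0.841 FPKM in the controls and 0.986 to 3.32 in the treated libraries, was just outside.

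**Figure D1:**
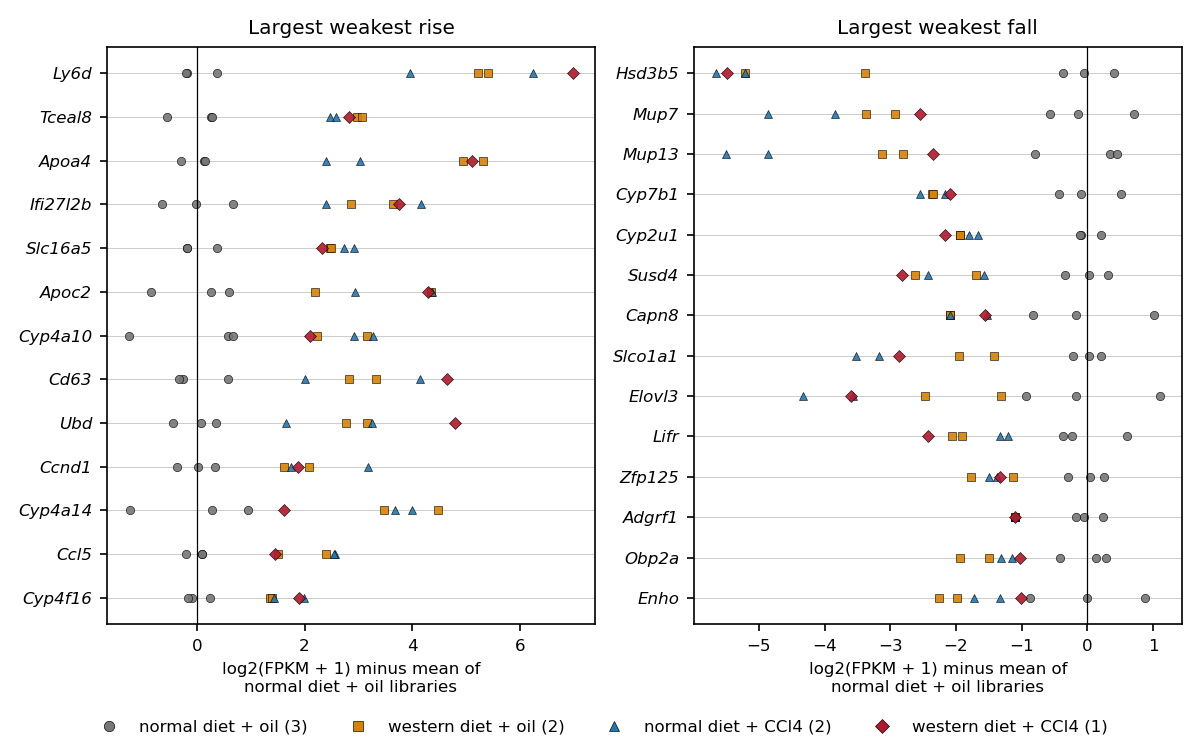
The 13 reported genes of the 14 with the largest rise (left) and the 14 with the largest fall (right) in their weakest treated library (predicted genes left out, at most 2 Mup genes). Each point is 1 library, as its log2(FPKM + 1) minus the mean of the 3 normal diet + oil libraries. Treated points lie beyond the control points for every gene, from 3.95 above the mean for the weakest Ly6d library to 1.01 below it for the weakest Enho library.

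Among the decreases, genes that male liver expresses more than female liver stood out. Of 25 tested male-biased genes, 11 were shared and lower and 0 higher, against 0.521% of all genes shared and lower, and their median log2 fold change was -1.90 (-2.12 with median-of-ratios scaling). Hsd3b5, a steroid dehydrogenase of male liver (ENSMUSG00000038092, chromosome 3, 98618634 to 98630252 on GRCm38, as for all coordinates here), had 80.2, 100.4 and 138 FPKM in the controls, 9.05 and 1.81 with the western diet, 1.81 and 1.08 with CCl4 and 1.32 with both. The highest treated library thus held well under the lowest control, and the difference was -4.99 ± 0.47 (limma adjusted p = 0.00297) on the log2 scale (± SE here and below). Cyp7b1, the oxysterol hydroxylase of the acidic bile acid route (ENSMUSG00000039519, chromosome 3, 18071950 to 18243338), had 113, 89.1 and 172 FPKM in the controls, 22.5 and 22.7 with the western diet, 25.9 and 19.7 with CCl4 and 27.5 with both. Its 5 treated libraries lay close together although their treatments differed, and the difference was -2.30 ± 0.21 (limma adjusted p = 0.00297). Cyp2u1, a fatty acid hydroxylase (ENSMUSG00000027983, chromosome 3, 131288441 to 131303227), had 9, 7.09 and 7.04 FPKM in the controls, 1.27 and 1.26 with the western diet, 1.49 and 1.73 with CCl4 and 0.918 with both, a difference of -1.90 ± 0.14 (limma adjusted p = 0.00107). These 3 were the members of the list that passed without any 1 of the 8 libraries.

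Other male-biased genes fell with more spread between the treatments. Slco1a1, an anion and bile acid uptake transporter (ENSMUSG00000041698, chromosome 6, 141907282 to 141946962), had 59.6, 50.1 and 67.9 FPKM in the controls, 21.2 and 14.4 with the western diet, 4.22 and 5.65 with CCl4 and 7.19 with both. All treated values lay below the controls, those with CCl4 lowest, and the difference was -2.59 ± 0.43 (limma adjusted p = 0.0268). Elovl3, a fatty acid elongase (ENSMUSG00000038754, chromosome 19, 46131897 to 46135694), had 109, 63.9 and 265 FPKM in the controls, 48.7 and 21.2 with the western diet, 5.13 and 9.43 with CCl4 and 9.18 with both, a difference of -3.06 ± 0.66 (limma adjusted p = 0.0396). Susd4, a complement regulator (ENSMUSG00000038576, chromosome 1, 182763860 to 182896591), had 7.45, 9.81 and 12.3 FPKM in the controls, 2.31 and 0.728 with the western diet, 2.57 and 0.992 with CCl4 and 0.5 with both, a difference of -2.23 ± 0.30 (limma adjusted p = 0.0144). Nudt7, a peroxisomal coenzyme A diphosphatase, changed by -1.05 ± 0.16 and Serpina1e, an alpha-1-antitrypsin, by -1.99 ± 0.48. Of the 11 shared members, 7 were shared with median-of-ratios scaling. The number that passed was 3 without any 1 of the controls and 7, 8 and 7 without the library given both, western diet library 1 or western diet library 2.

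Major urinary protein genes made up 3 of those 11. Mup7 (ENSMUSG00000073842, chromosome 4, 60066469 to 60070475) had 10740.0, 14417 and 25924 FPKM in the controls, 2094 and 1529.5 with the western diet, 546 and 1108 with CCl4 and 2719 with both. Every treated library lay below the controls, CCl4 library 1 lowest, and the difference was -3.51 ± 0.50 (limma adjusted p = 0.0172). Mup13 (ENSMUSG00000089873, chromosome 4, 61224307 to 61228286), which is not in the list, had 7821, 17158 and 18515 FPKM in the controls, 1548 and 1934 with the western diet, 298 and 463 with CCl4 and 2665 with both, a difference of -3.73 ± 0.71 (limma adjusted p = 0.0309). Mup3 changed by -1.24 ± 0.25 and Mup12 by -3.94 ± 0.97, while Mup20, which encodes the pheromone darcin, had 4603, 3698 and 5650.2 FPKM in the controls, 5029.7 and 6759.7 with the western diet, 3114 and 4165 with CCl4 and 5546 with both. Treated and control values of Mup20 overlapped, and its change was 0.06 ± 0.28 (limma adjusted p = 0.905). Many Mup genes are near-identical copies, so the split of fragments between them is uncertain.

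No tested gene of the growth hormone axis was among the shared changes. Of 18 tested genes of that axis 0 passed in the limma fit, against 773 of all 11514. A list of 18 is too short for that 0 to be told from the share of all genes. Of the 18, 2 had an unadjusted p below 0.05, while 2 passed with a common sum and 1 with a mean for each group. Growth hormone signalling was not measured. The median was 0.07 (-0.18 with median-of-ratios scaling). Igf1, the main growth factor that growth hormone induces in liver, had 138, 115 and 119.7 FPKM in the controls, 111 and 114 with the western diet, 119 and 167 with CCl4 and 125 with both, a change of 0.02 ± 0.17 (limma adjusted p = 0.943) that turned negative with median-of-ratios scaling. Igfbp2, an IGF-binding protein, changed by -0.19 ± 0.24 (limma adjusted p = 0.619). Of 14 tested female-biased genes, 3 were shared and higher and 0 lower, against 6% of all genes, with a median of 1.00. They were Cyp4a14, given below with the Cyp4a genes, Fmo2, a flavin monooxygenase (0.72 ± 0.18, limma adjusted p = 0.0486), and Abcd2, a peroxisomal transporter of fatty acids (1.26 ± 0.32, limma adjusted p = 0.0499). None of those 3 passed without any 1 of the controls or with median-of-ratios scaling.

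Further genes that fell at least 2-fold in every treated library belonged to no list. Lifr, the receptor of leukaemia inhibitory factor (ENSMUSG00000054263, chromosome 15, 7090614 to 7197489), had 35.3, 32.1 and 64.2 FPKM in the controls, 10.4 and 9.28 with the western diet, 17.5 and 16.1 with CCl4 and 6.96 with both, a difference of -1.79 ± 0.32 (limma adjusted p = 0.0284). Adgrf1, an adhesion G protein-coupled receptor (ENSMUSG00000041293, chromosome 17, 43270329 to 43324737), was listed at 0 in all 5 treated libraries and at 1.06, 0.898 and 1.53 FPKM in the controls (limma adjusted p = 0.0155). No fold is given against values listed at 0. Obp2a, an odorant-binding protein (ENSMUSG00000062061, chromosome 2, 25700043 to 25703326), changed by -1.39 ± 0.24 (limma adjusted p = 0.0284), and the calpain protease Capn8 (ENSMUSG00000038599, chromosome 1, 182565007 to 182632352) by -1.87 ± 0.36 (limma adjusted p = 0.0333). Enho, which encodes the secreted peptide adropin (ENSMUSG00000028445, chromosome 4, 41638144 to 41640324), had 11.1, 5.59 and 21.3 FPKM in the controls, 1.53 and 2.05 with the western diet, 2.68 and 3.8 with CCl4 and 5.02 with both, a difference of -1.66 ± 0.39 (limma adjusted p = 0.0448). The highest treated library, that given both, lay just under the lowest control. Zfp125 (ENSMUSG00000069755, chromosome 12, 20877084 to 20921262), annotated as a transcribed pseudogene, changed by -1.42 ± 0.18 (limma adjusted p = 0.0118), but it overlaps another expressed gene on the same strand and its value is uncertain. Of these 6 genes, Capn8 and Enho lost the call once libraries were scaled by median of ratios (limma adjusted p = 0.0552 for Capn8 and 0.0663 for Enho), and all 6 lost it without control library 1 or 2.

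Cholesterol synthesis was lower in every treated library for a large part of the pathway. Of 26 tested genes of sterol synthesis and SREBP2 targets, 8 were shared and lower and 1 was shared and higher, against 0.521% and 6% of all genes. The 5 treated libraries lay below all controls for 17 of the 26, against 1.42% of all tested genes. The median log2 fold change was -0.80 (-1.07 with median-of-ratios scaling). The members were summed at 1339, 1218 and 1127 FPKM in the controls, 822 and 623 with the western diet, 701 and 1052 with CCl4 and 789 with both. Each treated sum was below each control sum, with CCl4 library 2 the nearest.

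Promoters of 3 genes of the pathway that fell are shown, from the RefSeq windows on GRCm38.p6, so that the letters can be read beside the values. Of the 9 shared genes of the list 5 had a window, and the 3 shown have most or all of their bases upstream of the start outside annotated exons. Capitals mark a CCAAT box on either strand (CCAAT or ATTGG) or the sterol element TCACNCCAC, N being any base. Both motifs were chosen after the values were seen.
Hmgcs1, chr13:119690101-119690350, plus strand: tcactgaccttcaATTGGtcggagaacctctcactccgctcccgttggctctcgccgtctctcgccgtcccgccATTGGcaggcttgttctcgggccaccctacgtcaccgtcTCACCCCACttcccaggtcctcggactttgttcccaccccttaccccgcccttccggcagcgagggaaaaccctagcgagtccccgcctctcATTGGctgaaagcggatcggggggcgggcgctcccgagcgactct
Lss, chr10:76531355-76531587, plus strand: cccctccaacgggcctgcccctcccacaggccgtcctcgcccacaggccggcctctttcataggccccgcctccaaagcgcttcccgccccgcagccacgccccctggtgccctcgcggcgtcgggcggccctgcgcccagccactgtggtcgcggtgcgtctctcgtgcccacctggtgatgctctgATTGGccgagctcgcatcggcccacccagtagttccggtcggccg
Pmvk, chr3:89454291-89454540, plus strand: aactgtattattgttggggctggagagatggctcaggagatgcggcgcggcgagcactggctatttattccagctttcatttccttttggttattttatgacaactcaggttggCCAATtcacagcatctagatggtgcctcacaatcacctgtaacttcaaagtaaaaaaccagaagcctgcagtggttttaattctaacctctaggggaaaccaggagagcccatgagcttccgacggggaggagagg
The Hmgcs1 window held 3 CCAAT boxes, which begin 237, 176 and 45 bases before the annotated start, and 1 sterol element 137 bases before it. The motifs shown do not overlap. A CCAAT box was found in 17 of 21 windows of the list, or 81.0%, against 33.8% of all 32851 windows, and the sterol element in 1 of the 21, or 4.76%, against 1.05%. Among windows of tested genes these shares were 35.3% and 1.16%. The sterol element was also found in 2 of 27 windows (7.41%) of the fatty acid oxidation list and 1 of 15 (6.67%) of the Kupffer cell and macrophage list. A CCAAT box was in 39.6% of the windows of all shared lower genes and in 27.3% of those lower in every scaling. Motifs of the factors STAT, AP-1, PPAR/RXR and PU.1 had been set beforehand. They were in 7.02%, 6.75%, 0.0335% and 2.44% of all windows. In the windows of tested genes, from which the shared genes come, they were in 5.76%, 4.74%, 0.0473% and 2.44%. In the windows of shared higher genes the shares were 6.09%, 4.75%, 0% and 3.71%. In those of shared lower genes they were 2.08%, 6.25%, 0% and 4.17%, the first being 1 of 48 windows. No test was run on these shares. A match describes letters only.

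Hmgcs1, the synthase that makes HMG-CoA, had 91, 93.3 and 96.3 FPKM in the controls, 34.3 and 16 with the western diet, 27.2 and 55.8 with CCl4 and 33.6 with both. All treated libraries lay below the controls, western diet library 2 lowest and CCl4 library 2 highest, and the difference was -1.57 ± 0.32 (limma adjusted p = 0.0337). Pmvk, the phosphomevalonate kinase, had 50.3, 45.3 and 44.8 FPKM in the controls, 27.1 and 24.3 with the western diet, 14.1 and 27.3 with CCl4 and 22 with both, a difference of -1.03 ± 0.21 (limma adjusted p = 0.0337). Here CCl4 library 1 was lowest rather than a western diet library. Fdft1, squalene synthase, had 48.8, 41.9 and 42.1 FPKM in the controls, 17.1 and 16.6 with the western diet, 21.5 and 34.1 with CCl4 and 19.7 with both, a difference of -1.03 ± 0.22 (limma adjusted p = 0.0384). Lss, lanosterol synthase, had 8.17, 8.7 and 9.09 FPKM in the controls, 4.82 and 2.95 with the western diet, 5.09 and 4.69 with CCl4 and 3.71 with both, a difference of -0.90 ± 0.16 (limma adjusted p = 0.0284). The treated values of Lss all lay below the controls without a library that stood apart.

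Other genes of the list gave mixed results. Msmo1, which removes methyl groups from lanosterol, changed by -1.44 ± 0.32 (limma adjusted p = 0.0414), and Hsd17b7, a sterol ketoreductase, by -0.78 ± 0.17 (limma adjusted p = 0.0387). Sqle, squalene epoxidase, had 18.9, 25.6 and 25.9 FPKM in the controls, 4.88 and 1.09 with the western diet, 14.3 and 17 with CCl4 and 15.1 with both. All treated libraries lay below the controls, those with the western diet alone far the lowest, and the change of -1.45 ± 0.64 (limma adjusted p = 0.17) did not pass the test. Srebf2, the gene of SREBP2, had 6.29 to 8.36 FPKM in the controls and 5.74 to 7.85 in the treated libraries, a change of -0.00173 ± 0.14 (limma adjusted p = 0.996). Hmgcs1, Pmvk, Fdft1 and Lss fell in every scaling, and 5 of the 8 lower genes were shared with median-of-ratios scaling. None of the 8 passed without any 1 of the controls or without the library given both, and all 8 passed without CCl4 library 2.

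**Figure D2:**
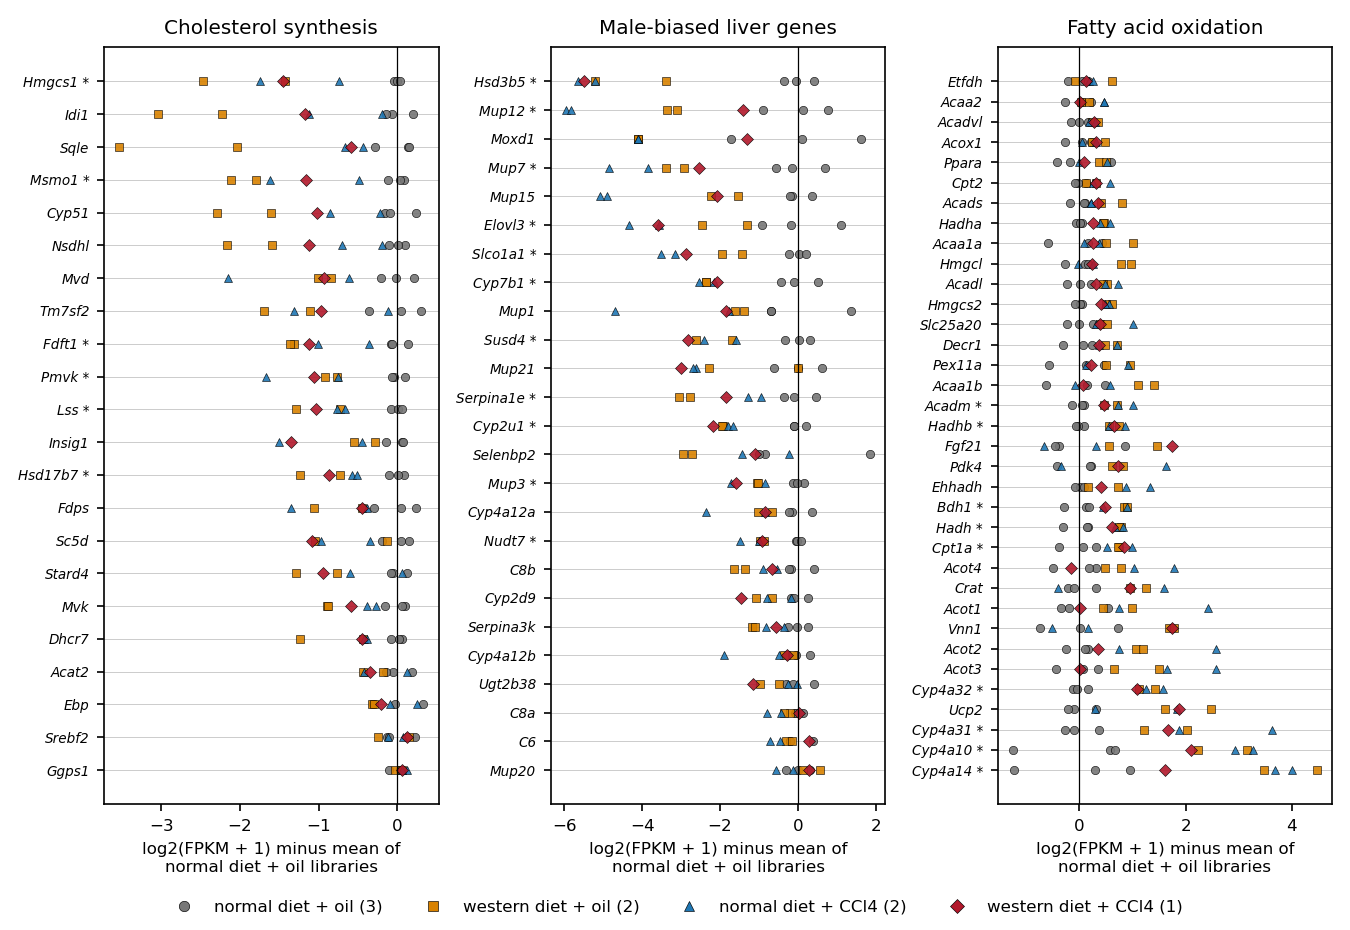
Reported genes of 3 lists in the 8 libraries (4 members of the cholesterol list are not drawn), as log2(FPKM + 1) minus the mean of the 3 normal diet + oil libraries, 1 point a library, ordered by the change, with an asterisk on shared genes. Over all tested members, treated libraries lie below all controls for 17 of 26 cholesterol genes and 17 of 25 male-biased genes, and above all controls for 19 of 35 genes of fatty acid oxidation.

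Genes of fatty acid oxidation moved the other way. Of 35 tested genes of oxidation and PPAR-alpha targets, 9 were shared and higher and 0 lower, against 6% of all genes shared and higher, with a median of 0.68 (0.39 with median-of-ratios scaling). The log2 fold change was positive for all 35, and for 9597 of the 11514 tested genes. The omega-hydroxylases of the Cyp4a family, which open a side route of fatty acid breakdown, had the largest changes. Cyp4a10 (ENSMUSG00000066072, chromosome 4, 115518264 to 115533649) had 14.5, 15.6 and 3.34 FPKM in the controls, 91.5 and 47.9 with the western diet, 77.5 and 98.8 with CCl4 and 43.3 with both, a difference of 2.73 ± 0.46 (limma adjusted p = 0.0271). Cyp4a14 (ENSMUSG00000028715, chromosome 4, 115486200 to 115496142) had 6.85, 3.95 and 0.718 FPKM in the controls, 88.8 and 44.1 with the western diet, 51.1 and 63.7 with CCl4 and 11.4 with both, a difference of 3.45 ± 0.65 (limma adjusted p = 0.0304). For both genes the library given both treatments was the lowest of the treated, and the controls spread widely. Cyp4a32 had 4.43, 4.77 and 5.66 FPKM in the controls, 14.8 and 11.8 with the western diet, 16.7 and 13.1 with CCl4 and 11.6 with both, a smaller but tighter difference of 1.29 ± 0.14 (limma adjusted p = 0.00843). The Cyp4a genes lie in 1 cluster on chromosome 4 and are similar in sequence, so that fragments may be shared between them.

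Mitochondrial enzymes of the same list changed little but evenly. Hadhb, the thiolase subunit of the trifunctional protein, had 36.2, 33.6 and 32.5 FPKM in the controls, 57.7 and 50.7 with the western diet, 62.8 and 50.3 with CCl4 and 54.2 with both. Treated libraries all lay above the controls, a difference of 0.68 ± 0.13 (limma adjusted p = 0.0302). Cpt1a, which brings fatty acids into mitochondria, changed by 0.76 ± 0.18 (limma adjusted p = 0.0448), Hadh by 0.72 ± 0.15 (limma adjusted p = 0.0363) and Acadm, the medium-chain dehydrogenase, by 0.67 ± 0.16 (limma adjusted p = 0.0455). Cyp4f16, a P450 of the neighbouring fatty acid hydroxylase family (ENSMUSG00000048440, chromosome 17, 32536558 to 32551798), belonged to no list and had 0.345, 0.71 and 0.28 FPKM in the controls, 2.67 and 2.8 with the western diet, 4.67 and 2.87 with CCl4 and 4.36 with both, a difference of 1.62 ± 0.19 (limma adjusted p = 0.01) that held in every scaling. With median-of-ratios scaling 2 of the 9 list members were shared, Cyp4a32 and Cyp4a10. Without 1 control, 0 (library 1), 1 (library 2) and 1 (library 3) of the 9 passed.

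Lipid transport genes gave some of the largest increases. Apoa4, which encodes an apolipoprotein of chylomicrons and HDL (ENSMUSG00000032080, chromosome 9, 46240696 to 46243459), had 75.8, 76.8 and 55.8 FPKM in the controls, 2144 and 2756 with the western diet, 570.0 and 367 with CCl4 and 2416 with both. The western diet and double-treated libraries stood far above those with CCl4 alone, which were in turn far above the controls, a difference of 4.16 ± 0.65 (limma adjusted p = 0.0222). Apoc2, the cofactor of lipoprotein lipase (ENSMUSG00000002992, chromosome 7, 19671579 to 19677941), had 15.9, 45.2 and 35.7 FPKM in the controls, 139.6 and 618 with the western diet, 631 and 234 with CCl4 and 596 with both, a difference of 3.63 ± 0.55 (limma adjusted p = 0.0214). Western diet library 1 and CCl4 library 2 were the lowest of the treated libraries. Both rose in every scaling, but not without any 1 of the controls (adjusted p 0.0698 to 0.111 and 0.0666 to 0.0862), and both genes overlap other expressed genes, Apoc2 on the same strand. Of 22 tested apolipoprotein and lipoprotein assembly genes these 2 and the sterol transporter Abcg1 (1.08 ± 0.27, limma adjusted p = 0.0474) were shared and higher, against 6% of all genes, 0 were lower, and the median of 0.17 became -0.11 with median-of-ratios scaling.

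Fatty acid uptake and droplet genes had 5 of 23 tested members shared and higher and 0 lower, against 6% of all genes shared and higher. Lpl, lipoprotein lipase, had 1.53, 2.69 and 3.29 FPKM in the controls, 21.4 and 24.9 with the western diet, 18.7 and 4.93 with CCl4 and 29.2 with both, a difference of 2.42 ± 0.47 (limma adjusted p = 0.0333). Cd36, a fatty acid translocase, had 4.76, 8.42 and 2.08 FPKM in the controls, 38.5 and 30.4 with the western diet, 24.9 and 10.3 with CCl4 and 28.6 with both, a difference of 2.21 ± 0.44 (limma adjusted p = 0.0337). Fabp4, a fatty acid binding protein of adipocytes and macrophages, had 3.09, 5.79 and 4.15 FPKM in the controls, 33.5 and 46 with the western diet, 17.7 and 8.76 with CCl4 and 38.5 with both, a difference of 2.31 ± 0.47 (limma adjusted p = 0.0337). In all 3 genes CCl4 library 2 was the treated library nearest the controls. Fitm2 and Plin5, both proteins of the lipid droplet, changed by 0.70 ± 0.17 (limma adjusted p = 0.0452) and 1.07 ± 0.27 (limma adjusted p = 0.0474). Of 3 tested adipose markers Fabp4 was the 1 shared, and their sum was 3.09, 6.95 and 4.15 FPKM in the controls, 91.7 and 117 with the western diet, 17.7 and 8.76 with CCl4 and 40.3 with both. Macrophage markers moved in the same libraries, as given below, and their part in these results was not tested. Each of these 5 calls ended under median-of-ratios scaling and without any 1 library other than CCl4 library 2. Of 26 lipogenesis genes, 1 was shared and higher and 1 lower, against 6% and 0.521% of all genes. They were the desaturase Scd2 (1.06 ± 0.27, limma adjusted p = 0.0483), which rose, and Elovl3, which fell. The median of the list was 0.26 (-0.02 with median-of-ratios scaling).

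Of 29 tested genes of glucose metabolism 3 were shared and higher and 1 lower, against 6% and 0.521% of all genes. G6pc, the glucose 6-phosphatase that releases glucose, had 208, 152 and 181 FPKM in the controls, 139 and 66.2 with the western diet, 89.7 and 57.4 with CCl4 and 85.8 with both. All treated values lay below the controls, western diet library 1 just so, a difference of -1.09 ± 0.27 (limma adjusted p = 0.0465). Pfkfb1, the regulator of glycolysis in liver, changed by 0.99 ± 0.18 (limma adjusted p = 0.0302), Gapdh by 1.01 ± 0.21 (limma adjusted p = 0.0381) and Pkm, a pyruvate kinase of non-hepatocytes, by 1.88 ± 0.45 (limma adjusted p = 0.0452). Each of these 4 calls ended under median-of-ratios scaling and without any 1 of the controls. Of 24 bile acid genes 1 was shared and higher and 2 lower, against the same 6% and 0.521%. Cyp7b1 and Slco1a1, given above, were lower. Abcb4, the phospholipid exporter of bile, was higher with 32.6, 30.8 and 29.1 FPKM in the controls, 51.4 and 55.6 with the western diet, 42.7 and 49.4 with CCl4 and 43.8 with both. The values of Abcb4 were tight in each group, a difference of 0.64 ± 0.13 (limma adjusted p = 0.0352), which ended with median-of-ratios scaling (adjusted p = 0.229). In the next 3 lists the shares lay below the 6% of all genes. Of 32 amino acid and urea cycle enzymes Gpt2, an alanine transaminase, was the 1 shared (0.74 ± 0.19, limma adjusted p = 0.0487). Of 28 xenobiotic P450 enzymes Cyp2a22 was the 1 shared, with 0 to 0.58 FPKM in the controls and 1.3 to 4.26 in the treated libraries, a difference of 1.65 ± 0.32 (limma adjusted p = 0.0318). Of 18 pericentral markers the 1 shared was Slc1a4, an amino acid transporter (0.89 ± 0.22, limma adjusted p = 0.046). Gpt2, Cyp2a22 and Slc1a4 lost the call under median-of-ratios scaling (limma adjusted p = 0.177, 0.0583 and 0.108) and without any 1 of the controls. Cyp2e1, which activates CCl4, had 2297, 2406 and 1789.6 FPKM in the controls, 1886 and 2159.6 with the western diet, 1070.1 and 1351 with CCl4 and 1032 with both. Its CCl4-treated libraries were lowest and the western diet libraries overlapped the controls, a change of -0.58 ± 0.28 (limma adjusted p = 0.2) that did not pass.

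Macrophage markers were higher in the treated set. Of 20 tested markers of Kupffer cells and macrophages 7 were shared and higher and 0 lower, against 6% of all genes, with a median of 1.62 (1.38 with median-of-ratios scaling). Their sum was 121, 229 and 213 FPKM in the controls, 794 and 1545 with the western diet, 696 and 244 with CCl4 and 708 with both. The range across treated libraries was wide, with CCl4 library 2 just above the highest control. C1qb, a chain of complement C1q made by macrophages, had 14.8, 24.5 and 25.6 FPKM in the controls, 108 and 204 with the western diet, 101 and 31.1 with CCl4 and 108 with both, a difference of 2.12 ± 0.49 (limma adjusted p = 0.0448). Csf1r, the receptor of the macrophage growth factor, had 2.37, 4.27 and 4.66 FPKM in the controls, 16.4 and 25 with the western diet, 13.7 and 5.73 with CCl4 and 12.9 with both, a difference of 1.63 ± 0.37 (limma adjusted p = 0.0434). Adgre1, the F4/80 antigen, had 0.401, 1.16 and 1.3 FPKM in the controls, 5.53 and 10.7 with the western diet, 4.67 and 1.71 with CCl4 and 5.09 with both, a difference of 1.63 ± 0.39 (limma adjusted p = 0.0459). In each of the 3, western diet library 2 was highest and CCl4 library 2 was the treated library nearest the controls. C1qc changed by 1.90 ± 0.46 (limma adjusted p = 0.0458) and Cd5l, a secreted scavenger protein of Kupffer cells, by 2.23 ± 0.55 (limma adjusted p = 0.0478), whereas Timd4, a marker of resident Kupffer cells, changed by 0.42 ± 0.62 (limma adjusted p = 0.665) and did not pass. Under median-of-ratios scaling none of the 7 shared markers passed, and 0 did without any 1 of the libraries other than CCl4 library 2, without which all 7 did.

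For macrophages that derive from monocytes or take up lipid, 4 of 17 tested markers were shared and higher, against 6% of all genes, with a median of 1.28. Their sum was 445, 458 and 331 FPKM in the controls, 794 and 899 with the western diet, 1391 and 407 with CCl4 and 977 with both. The sum of CCl4 library 2 lay within the controls. Cd63, a tetraspanin of late endosomes (ENSMUSG00000025351, chromosome 10, 128900989 to 128912822), had 1.18, 2.84 and 1.06 FPKM in the controls, 17.2 and 25 with the western diet, 44.6 and 9.35 with CCl4 and 63.4 with both. The library given both treatments was the highest, and the difference of 3.39 ± 0.53 (limma adjusted p = 0.0222) held in every scaling. The others were Lpl, given above, and the lysosomal proteases Ctsb (1.04 ± 0.19, limma adjusted p = 0.03) and Ctsd (1.04 ± 0.25, limma adjusted p = 0.0458). Ctsb overlaps Fdft1 on the opposite strand. Of these 4 genes Cd63 was the 1 shared under median-of-ratios scaling, and 0 passed without any 1 of the controls. Trem2, the receptor that defines lipid-associated macrophages, was listed at 0 in all controls and in CCl4 library 2, at 3.14 and 9.27 FPKM with the western diet, 9.82 in CCl4 library 1 and 4.80 with both. It was therefore not a change of every treated library. Cd68, a macrophage endosomal protein, had 1.78, 5.18 and 4.8 FPKM in the controls, 21.5 and 33.9 with the western diet, 29.5 and 4.6 with CCl4 and 14.9 with both, and its change of 1.99 ± 0.55 (limma adjusted p = 0.0587) did not pass.

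Transcripts of genes for antigen presentation by MHC class II were higher as well. Of 6 tested dendritic cell and MHC class II genes 5 were shared and higher, against 6% of all genes, with a median of 1.99. Cd74, the invariant chain, had 26.5, 27.7 and 23.6 FPKM in the controls, 115 and 222 with the western diet, 121 and 54.2 with CCl4 and 111 with both, a difference of 2.09 ± 0.36 (limma adjusted p = 0.0284). Each treated library held about as much as the next but for western diet library 2, which was highest, and CCl4 library 2, which was lowest. H2-Aa, H2-Eb1 and H2-Ab1, chains of the class II molecules, changed by 2.03 ± 0.36 (limma adjusted p = 0.0284), 2.1 ± 0.38 (limma adjusted p = 0.0298) and 1.95 ± 0.36 (limma adjusted p = 0.0302), and H2-DMb1, which helps load peptides, by 1.54 ± 0.26 (limma adjusted p = 0.0284). The 5 calls ended with median-of-ratios scaling (0 of 5 shared) and without any 1 of the controls.

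Lysosome and phagocytosis genes had 9 of 25 tested members shared and higher and 0 lower, against 6% of all genes shared and higher, with a median of 1.06. All 25 changes were positive, as were 9597 of the 11514 over all tested genes, and 1 of the 9 was shared under median-of-ratios scaling. Hexa, a lysosomal enzyme that breaks down gangliosides, had 14.5, 15.4 and 12.4 FPKM in the controls, 36.4 and 40.2 with the western diet, 37 and 20.9 with CCl4 and 35.9 with both, a difference of 1.19 ± 0.21 (limma adjusted p = 0.0284). Of its treated libraries 4 lay close together, and CCl4 library 2 stood between them and the controls. Lamp1, an abundant membrane protein of lysosomes, changed by 0.59 ± 0.13 (limma adjusted p = 0.0407) and Axl, a receptor for dying cells, by 1.48 ± 0.33 (limma adjusted p = 0.042). In the list of chemokines and inflammation genes, 6 of 20 were shared and higher, against 6% of all genes and with a median of 1.03. Ccl5, a chemokine of T cells and NK cells (ENSMUSG00000035042, chromosome 11, 83525778 to 83530518), had 0.958, 0.582 and 0.963 FPKM in the controls, 4.22 and 8.68 with the western diet, 9.84 and 9.65 with CCl4 and 3.98 with both. Here CCl4 library 2 was among the highest, and the difference of 2.1 ± 0.29 (limma adjusted p = 0.0151) held in every scaling. The adhesion molecules Icam1 and Vcam1 changed by 1.02 ± 0.19 (limma adjusted p = 0.03) and 1.69 ± 0.36 (limma adjusted p = 0.0384), and the interleukin-1 antagonist Il1rn by 1.72 ± 0.35 (limma adjusted p = 0.0337). Ccl5 was also the 1 shared member of 4 tested T and NK cell markers. Macrophage markers, whose sums are given above, were higher in the same libraries, and their part here was not tested. Of the 6 inflammation genes 1, Ccl5, was shared under median-of-ratios scaling, and of both lists 0 genes passed without any 1 of the controls.

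Stellate cell and matrix genes were higher as well, though Acta2, Col1a1 and Timp1, known signs of stellate cell activation, were not among the shared changes. Of 15 tested stellate cell and myofibroblast markers 6 were shared and higher and 0 lower, against 6% of all genes, with a median of 0.78. Rgs5, a regulator of G protein signalling in pericytes, had 2.44, 2.42 and 3.93 FPKM in the controls, 10.7 and 11.7 with the western diet, 10.8 and 6.73 with CCl4 and 10.3 with both. The treated libraries other than CCl4 library 2 were nearly equal, and the difference of 1.49 ± 0.19 (limma adjusted p = 0.0123) held in every scaling. Colec11, a collectin of stellate cells, changed by 1.31 ± 0.20 (limma adjusted p = 0.0222), Vim, vimentin, by 1.84 ± 0.40 (limma adjusted p = 0.0402) and Pdgfrb, the receptor of platelet-derived growth factor, by 0.88 ± 0.21 (limma adjusted p = 0.0452). Acta2, the smooth muscle actin of myofibroblasts, had 0.49, 0.958 and 1.21 FPKM in the controls, 0.956 and 1.76 with the western diet, 4.27 and 0.83 with CCl4 and 1.01 with both. Treated and control values overlapped, CCl4 library 1 alone standing high, and the change of 0.45 ± 0.33 (limma adjusted p = 0.384) did not pass.

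Of 25 tested genes of the extracellular matrix 9 were shared and higher and 0 lower, against 6% of all genes, with a median of 1.03. Their sum was 144, 214 and 165 FPKM in the controls and 203 to 510 in the treated libraries. The lowest treated sum, that of CCl4 library 2, lay below control library 2. Col14a1, a collagen of fibril surfaces, had 3.12, 3.26 and 2.46 FPKM in the controls, 10.6 and 13.3 with the western diet, 15.8 and 6.9 with CCl4 and 7.61 with both, a difference of 1.53 ± 0.25 (limma adjusted p = 0.0231) that held in every scaling. Dcn, decorin, had 27, 26.6 and 23.2 FPKM in the controls, 72.4 and 77.4 with the western diet, 78.4 and 36.2 with CCl4 and 53.3 with both, a difference of 1.23 ± 0.25 (limma adjusted p = 0.0337). Every treated library of both genes lay above the controls, CCl4 library 2 lowest. Postn, periostin, changed by 1.65 ± 0.30 (limma adjusted p = 0.0302) and Col4a1, a basement membrane collagen, by 1.36 ± 0.30 (limma adjusted p = 0.0408). For Col1a1, a chain of the fibrillar collagen type I, the values were 0.384, 2.68 and 0.284 FPKM in the controls, 2.42 and 4.06 with the western diet, 16.4 and 1.77 with CCl4 and 3.3 with both. A single control, library 2, overlapped the treated range and CCl4 library 1 stood far above the rest, a change of 1.46 ± 0.58 (limma adjusted p = 0.133) that did not pass. Timp1, an inhibitor of matrix proteases, had 0, 2.83 and 0 FPKM in the controls, 1.01 and 3.25 with the western diet, 3.07 and 0.49 with CCl4 and 1.31 with both, with values of the groups intermixed (0.74 ± 0.50, limma adjusted p = 0.34). Of 17 sinusoidal endothelial markers 2 were shared and higher, against 6% of all genes, the receptor Flt4 (0.80 ± 0.19, limma adjusted p = 0.0448) and the junction protein Pecam1 (0.98 ± 0.23, limma adjusted p = 0.0448). Of the 6 stellate, 9 matrix and 2 endothelial genes, 1, 1 and 0 were shared with median-of-ratios scaling, and the call of Rgs5 without control library 3 was the 1 that held without a control.

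**Figure D3:**
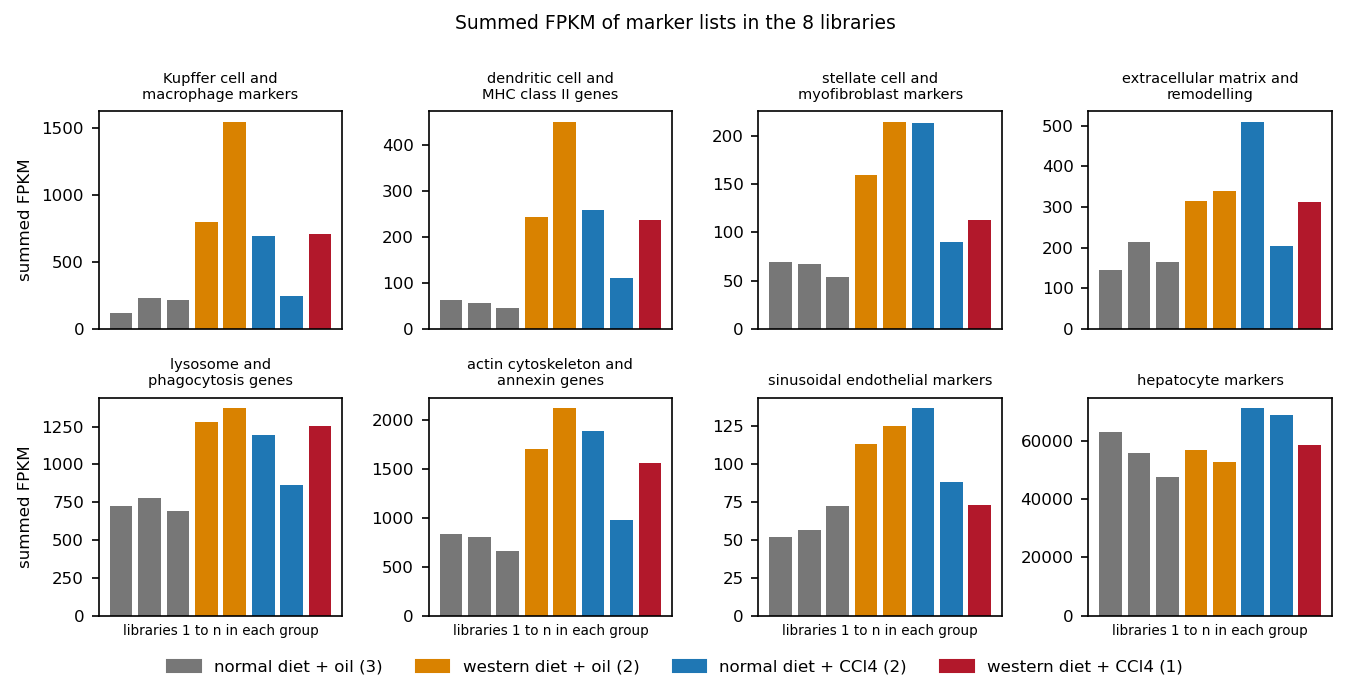
Summed FPKM of the tested members of 8 lists, 1 bar a library, grouped by treatment. Macrophage markers range from 121 to 229 FPKM in the controls and from 244 to 1545 in the treated libraries. CCl4 library 2 is the lowest treated library in 6 of the 7 lists other than hepatocyte markers. Sums overlap between the groups for hepatocyte markers and for matrix genes, where CCl4 library 2 (203 FPKM) lies below control library 2 (214 FPKM).

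Cytoskeletal and membrane-associated genes rose in part. Of 27 tested actin cytoskeleton and annexin genes 9 were shared and higher and 0 lower, against 6% of all genes, with a median of 1.03. Anxa5, an annexin that binds phosphatidylserine, had 22.8, 23.7 and 18.5 FPKM in the controls, 112 and 106 with the western diet, 106 and 53.7 with CCl4 and 88.8 with both. CCl4 library 2 was the lowest treated library and still lay well above the highest control, and the difference of 2.02 ± 0.24 (limma adjusted p = 0.01) held in every scaling. Anxa2 had 3.23, 7.37 and 3.3 FPKM in the controls, 48.5 and 49.2 with the western diet, 60.9 and 10.8 with CCl4 and 29 with both, a difference of 2.72 ± 0.50 (limma adjusted p = 0.0302). S100a11, a calcium-binding partner of annexins, had 7.01, 10.1 and 3.63 FPKM in the controls, 53.2 and 106 with the western diet, 117 and 16.8 with CCl4 and 80.6 with both, a difference of 3.08 ± 0.58 (limma adjusted p = 0.0304). For Anxa2 and S100a11, CCl4 library 2 lay far nearer the controls than the other 4. Msn, moesin, changed by 1.42 ± 0.27 (limma adjusted p = 0.0304). Anxa5 was the 1 of the 9 shared under median-of-ratios scaling and the member that passed without control library 2 or 3, and 0 of the 9 passed without control library 1. Macrophage markers were higher in the same libraries, and their part in these changes was not tested.

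Interferon response genes gave 4 of 25 shared and higher and 0 lower, against 6% of all genes, with a median of 0.67. Ubd, the ubiquitin-like protein FAT10 (ENSMUSG00000035186, chromosome 17, 37193892 to 37196095), had 0.438, 0.733 and 0 FPKM in the controls, 8.19 and 11.1 with the western diet, 11.9 and 3.29 with CCl4 and 36.7 with both. The library given both was highest by far and CCl4 library 2 lowest, a difference of 3.13 ± 0.56 (limma adjusted p = 0.0296) that ended with median-of-ratios scaling (adjusted p = 0.0552). Oas1a, an antiviral oligoadenylate synthetase, changed by 1.56 ± 0.30 (limma adjusted p = 0.0309) and Gbp3, a guanylate-binding protein, by 0.90 ± 0.23 (limma adjusted p = 0.0499). Ifi27l2a, an interferon-induced protein, changed by 2.06 ± 0.45 (limma adjusted p = 0.039). Its relative Ifi27l2b (ENSMUSG00000021208, chromosome 12, 103450898 to 103457223), outside the list, had 5.04, 8.69 and 2.89 FPKM in the controls, 43.6 and 75 with the western diet, 109 and 31.2 with CCl4 and 81.3 with both, a difference of 3.37 ± 0.42 (limma adjusted p = 0.0118) that held in every scaling. Ubd did not pass without any 1 of the controls (adjusted p 0.0806 to 0.127) and had an adjusted p up to 0.062 without a treated library.

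Genes known from fetal or tumorous liver included Ly6d, the shared gene with the largest log2 fold change. Of 14 tested genes 5 were shared and higher and 0 lower, against 6% of all genes, with a median of 1.17. The 5 treated libraries lay above all controls for 12 of the 14, against 21.4% of all genes. Of the 22 members of the list these 14 met the filter. For 2 of them, listed at 0 in all controls, it was met through treated libraries alone. The list was chosen with earlier results of these data known, so no conclusion is drawn from the 12. Ly6d, a surface protein anchored by a lipid (ENSMUSG00000034634, chromosome 15, 74762056 to 74763620), had 0.553, 1.27 and 0.528 FPKM in the controls, 64.3 and 73.3 with the western diet, 132 and 26.1 with CCl4 and 220.0 with both. The weakest treated library, CCl4 library 2, was 3.95 on the log2 scale above the control mean, and the difference was 5.56 ± 0.56 (limma adjusted p = 0.00491). Ly6d passed in every scaling and without any 1 library (limma adjusted p 0.0343 to 0.0464 without a control). Akr1b10, an aldose reductase, changed by 1.15 ± 0.25 (limma adjusted p = 0.0385), Mdk, the growth factor midkine, by 0.79 ± 0.19 (limma adjusted p = 0.046) and Cd44, a hyaluronan receptor, by 1.19 ± 0.30 (limma adjusted p = 0.0494). Of the 5 shared genes Ly6d was the 1 shared under median-of-ratios scaling and the 1 that passed without any 1 library other than CCl4 library 2, without which all 5 passed.

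Proliferation genes mostly lay above the controls, and the share that passed was near that of all genes. Of 20 tested proliferation genes Ccnd1 was the 1 shared, against 6% of all genes shared and higher. The 5 treated libraries lay above all controls for 12 of the 20, against 21.4% of all genes, and the median was 0.96. Of the 20, 2 were listed at 0 in all controls and so met the filter through treated libraries alone. Ccnd1, cyclin D1 of early cell cycle entry (ENSMUSG00000070348, chromosome 7, 144929931 to 144939925), had 2.45, 3.26 and 1.62 FPKM in the controls, 9.38 and 13.3 with the western diet, 29.8 and 10.4 with CCl4 and 11.4 with both. CCl4 library 1 stood apart above the other treated libraries, and the difference of 2.1 ± 0.33 (limma adjusted p = 0.0222) held in every scaling. Mki67, a marker of dividing cells, was too low to be tested and was listed at 0 in the controls, at 0.520 and 0.294 FPKM with the western diet, at 7.40 and 0 with CCl4 and at 0.713 with both. Summed proliferation genes were likewise highest in CCl4 library 1, at 36.5, 33.6 and 27.1 FPKM in the controls, 55.6 and 66.9 with the western diet, 328 and 59.2 with CCl4 and 63.1 with both. Of 15 p53 targets, Ccng1, a cyclin of the damage response, and Phlda3 were shared and higher, against 6% of all genes (0.66 ± 0.16, limma adjusted p = 0.0465 and 1.57 ± 0.38, limma adjusted p = 0.0465), while the cell cycle inhibitor Cdkn1a had 2.94, 1.92 and 5.25 FPKM in the controls, 14 and 12.3 with the western diet, 15.8 and 3.1 with CCl4 and 13.2 with both. CCl4 library 2 lay within the controls for Cdkn1a, so that it was not shared (1.46 ± 0.45, limma adjusted p = 0.0755). Neither p53 target passed with median-of-ratios scaling or without any 1 of the controls.

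Several of the most even increases fell into no list. Tceal8, a protein related to transcription elongation factor A (ENSMUSG00000051579, chromosome X, 136168984 to 136172342), had 2.61, 2.67 and 1.05 FPKM in the controls, 22.7 and 24.1 with the western diet, 15.7 and 17.1 with CCl4 and 20.2 with both. The 5 treated libraries differed less from each other than from any control, and the difference was 2.78 ± 0.22 (limma adjusted p = 0.00118). Slc16a5, a monocarboxylate transporter (ENSMUSG00000045775, chromosome 11, 115462474 to 115474398), had 0, 0.48 and 0 FPKM in the controls, 5.3 and 5.39 with the western diet, 6.58 and 7.61 with CCl4 and 4.73 with both, a difference of 2.59 ± 0.18 (limma adjusted p = 0.00107). Of the 52 genes higher in every scaling 11 were listed at 0 in all 3 controls, so no fold is given for them. They include Ttc39a (0.930 to 3.51 FPKM in the treated libraries) and Jmjd7 (1.19 to 1.86 FPKM), chosen after their values were seen. Others of the 52, likewise chosen after their values were seen, were the growth factor-binding protein Igfbp7 (23.6 to 30.4 FPKM in the controls and 52.2 to 109 in the treated libraries, 1.46 ± 0.23, limma adjusted p = 0.0222), the collagen chaperone Serpinh1 (2.76 to 3.42 FPKM in the controls and 6.56 to 16.8 in the treated libraries, 1.49 ± 0.24, limma adjusted p = 0.0241) and the amyloid precursor App (3.83 to 5.16 FPKM in the controls and 11.1 to 17.7 in the treated libraries, 1.33 ± 0.17, limma adjusted p = 0.0118).

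Stress lists had small counts of shared members, to be read against 6% of all genes. The share of the NRF2 list lay below 6%. Those of the immediate early, metal-handling and complement lists lay above it. Of 25 NRF2 and glutathione genes the 1 shared was the quinone reductase Nqo1, with 2.69, 2.53 and 1.69 FPKM in the controls, 4.83 and 5.01 with the western diet, 11.5 and 5.74 with CCl4 and 4.61 with both, a difference of 1.09 ± 0.26 (limma adjusted p = 0.045). The list's median of 0.22 became -0.05 with median-of-ratios scaling. Of 14 immediate early genes Klf6 and Ier3 were shared and higher (1.20 ± 0.28, limma adjusted p = 0.0434 and 0.81 ± 0.19, limma adjusted p = 0.0447), and of 13 metal-handling genes the zinc transporter Slc39a4 and the transferrin receptor Tfrc (1.29 ± 0.24, limma adjusted p = 0.0304 and 0.92 ± 0.23, limma adjusted p = 0.0466). Of 25 complement genes C1qb and C1qc, already given, were shared, with a list median of 0.19 (-0.10 with median-of-ratios scaling). None of these passed with median-of-ratios scaling or without any 1 of the controls.

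In 15 lists, that of the growth hormone axis among them, no gene was shared. They held 237 tested genes, of which 0 passed in the limma fit and 34 had an unadjusted p below 0.05, 32 higher and 2 lower. With a common sum 21 of the 237 passed, and with a mean for each group 17. Over all 11514 genes 3136 and 232 had an unadjusted p below 0.05, higher and lower, and 2272 passed with a common sum. The lists were grouped here because none of their genes was shared, so the 0 follows largely from that choice. Hepatocyte markers (14 tested) had a median of 0.01, hepatocyte transcription factors (23) 0.19, periportal markers (17) 0.28, coagulation factors (20) 0.10 and acute phase proteins (25) 0.37. Subunits of oxidative phosphorylation encoded in the nucleus (27 tested) had a median of 0.21, mitochondrially encoded genes (13) -0.20, ribosomal proteins (31) 0.37, clock genes (17) 0.27 and genes of ER stress (21) 0.26. With median-of-ratios scaling these medians were -0.27, -0.04, -0.01, -0.18, 0.08, -0.08, -0.48, 0.09, 0.05 and -0.03 in the same order, so that 6 of the 10 changed sign. Hnf4a, a master regulator of hepatocytes, had 69.8, 71.8 and 65.2 FPKM in the controls, 65 and 60 with the western diet, 85.3 and 89.6 with CCl4 and 70.5 with both. Its groups overlapped (0.09 ± 0.16, limma adjusted p = 0.734). Among blood and duct cells the medians were 1.44 for neutrophil markers (8 tested), 0.11 for B and plasma cell markers (5), 0.58 for duct markers (6) and 0.81 for haemoglobin genes (5). S100a9, a calprotectin subunit of neutrophils, had 2.96, 5.27 and 1.32 FPKM in the controls, 12.4 and 23 with the western diet, 3.91 and 3.63 with CCl4 and 267 with both. The library given both stood alone at the top, while both libraries with CCl4 alone lay within the controls (2.23 ± 1.16, limma adjusted p = 0.227). Haemoglobin, a sign of blood in the tissue, was not raised in every treated library, since Hba-a1 had 55.7, 75.2 and 79.6 FPKM in the controls, 238 and 149 with the western diet, 59.6 and 69.2 with CCl4 and 182 with both.

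**Figure D4:**
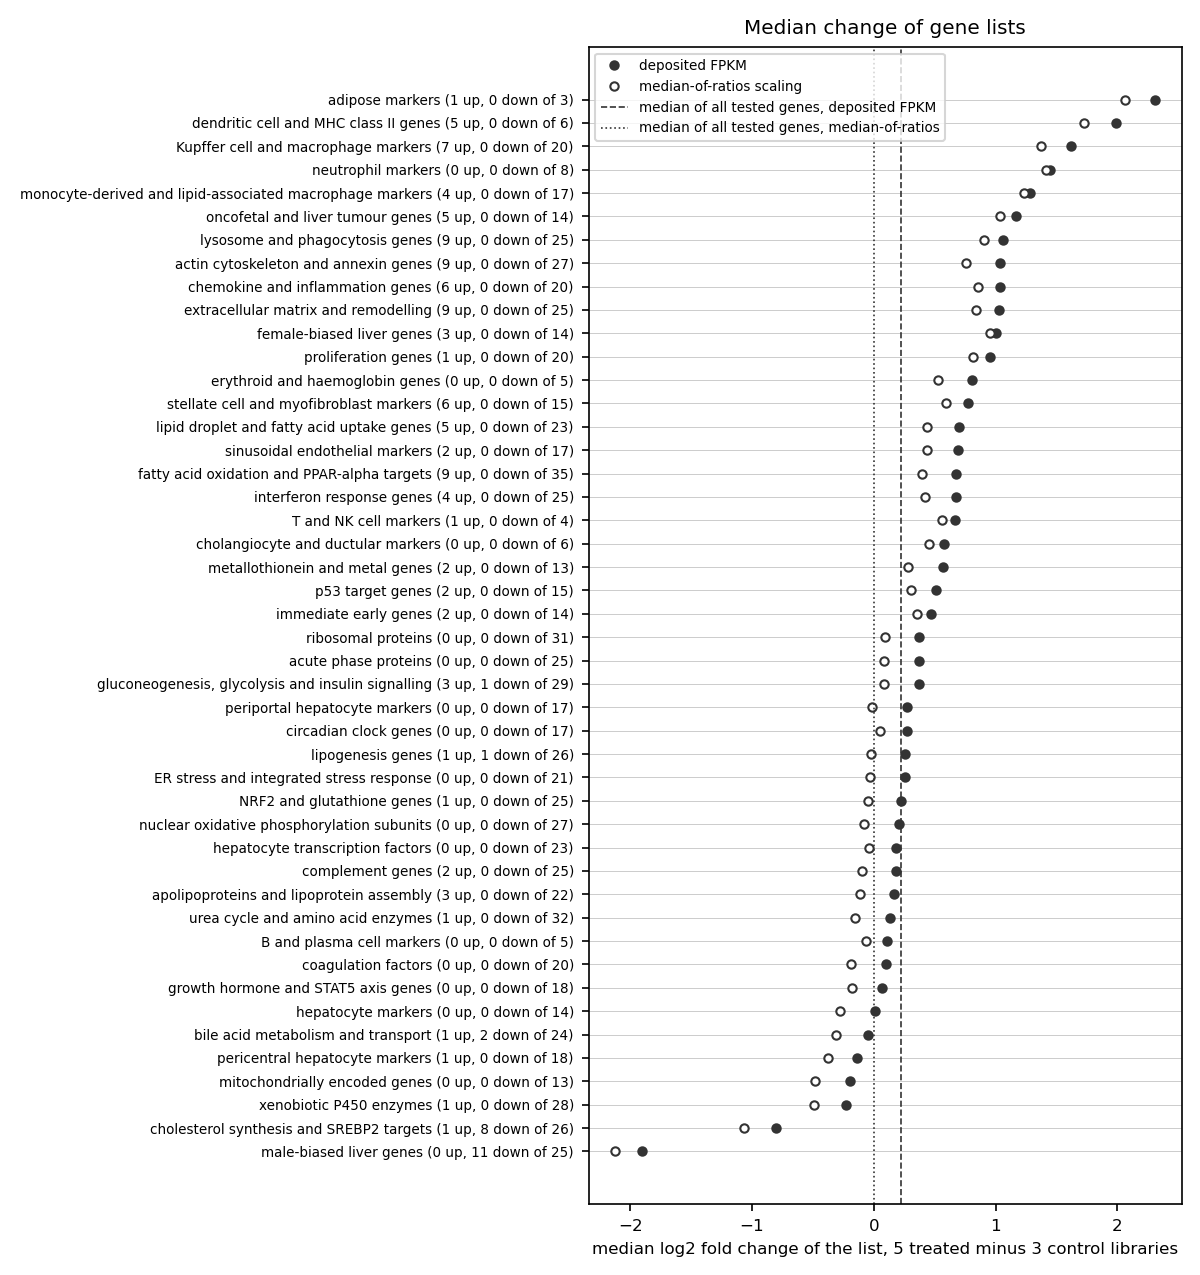
Median log2 fold change (5 treated minus 3 control libraries) of each gene list with the deposited FPKM (filled) and with median-of-ratios scaling (open), and in brackets the numbers of shared members higher and lower and of members tested. The lists of male-biased genes and of cholesterol synthesis lie lowest, at -1.90 and -0.80, and the deposited values lie to the right of the scaled ones in every list.

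The size of a shared change was then compared between diet and toxin, in a limma fit of 4 separate group means, by the contrast of western diet + oil against normal diet + CCl4, whose size rests on no control library although its SE does. In all 71 genes passed (0.617%), and 1279 had an unadjusted p below 0.05 (11.1%). Of the 751 shared genes 7 passed, 3 of the higher and 4 of the lower, and 88 had an unadjusted p below 0.05. The fit that picked the shared genes counted differences between the treated groups as spread. That choice limits how many shared genes can differ here, so no conclusion is drawn from these counts. Apoa4 was higher with the western diet by 2.41 ± 0.29 (limma adjusted p = 0.0191) on the log2 scale, and so were the predicted non-coding genes Gm30692 and Gm47528, the latter overlapping Apoa4. Slco1a1 was less lowered with the western diet, by 1.65 ± 0.25 (limma adjusted p = 0.0351), as were Mup16, with a difference of 2.72 ± 0.42 (limma adjusted p = 0.037), and the pseudogenes Mup-ps14 and Mup-ps15. For Ly6d the difference was 0.21 ± 0.62 (limma adjusted p = 0.926), for Tceal8 0.49 ± 0.29 (limma adjusted p = 0.573), for Cyp7b1 6.82e-05 ± 0.31 (limma adjusted p = 1) and for Cyp2u1 -0.20 ± 0.17 (limma adjusted p = 0.72). A p that misses the threshold does not show that diet and toxin acted alike, and with 2 libraries a group the SE allows sizeable differences. The count fell to 2 and 1 without western diet library 1 or 2 and to 17 without control library 2, and rose to 122 without control library 3. The library given both treatments differed from the mean of the single treatments in 7 genes (0.0608%), with 530 at an unadjusted p below 0.05 (4.6%), and as a single library it was assumed to vary like the others.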

How the data were processed

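Total RNA of mouse liver was sequenced in 8 libraries with a stranded mRNA kit, per the labels' protocols. The authors deposited a table of FPKM for 55487 genes. The submitters' processing notes name HISAT2 2.2.1, StringTie 2.1.0, cutadapt 3.7, FastQC 0.11.9 and the build GRCm38. Neither strand counting nor depth is stated there, so no interval from counts is possible. FPKM is relative to each library, and a fall of abundant transcripts lifts all others.

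From the deposited FPKM, genes with at least 1 FPKM in at least 2 libraries (11514) were tested as log2(FPKM + 1), 5 treated against 3 control libraries, with limma 3.58.1 in R 4.3.3 (empirical Bayes with trend, Benjamini-Hochberg over all tested genes). The script was tested on simulated data. Median-of-ratios scaling divided each library by the median ratio to the gene-wise geometric mean. The groups, the members and the 46 gene lists were chosen with earlier results of these data known. The text names the 14 shared genes with the largest rise and the 14 with the largest fall in their weakest library, up to 4 shared members of each list by p, up to 2 abundant members of lists with none, and a few fixed genes. Predicted genes were left out of the first rule and Mup genes limited to 2. Promoters came from RefSeq. Single values of a few genes are not reported here, though list counts and sums include them. In the file, 27 gene symbols read as dates. The alternatives were other scalings, another pseudocount, other filters, a fit with 4 groups, robust estimation, a replicate block and leaving out libraries.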

Additional observations from a re-analysis of the deposited data

Results flagged for a closer look

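Besides Mup16 and the predicted genes and pseudogenes given above, 4 genes named by the rule differed in the size of the change between western diet + oil and normal diet + CCl4 in the 4-group limma fit. The log2 difference (western diet minus CCl4) was 2.41 for Apoa4 and 1.65 for Slco1a1, both shared genes. It was 4.08 for Cidec, a lipid droplet protein with 1.59, 2.15 and 0.431 FPKM in the controls, 44.1 and 71.5 with the western diet, 3.66 and 1.46 with CCl4 and 16.1 with both, and -3.16 for Gstm3, a glutathione transferase with 46.7, 37.4 and 36.7 FPKM in the controls, 44.4 and 59 with the western diet, 687 and 315 with CCl4 and 79.1 with both. For both of the latter, 1 of the treatments alone left the libraries at or near the controls.

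In other genes 1 of the 5 treated libraries stood apart, its gap to the next being over the share of the range that Dixon's test allows. Chance alone marks about 1 in 20 such groups. CCl4 library 1 was high for Ccnd1 (29.8 FPKM), Nqo1 (11.5), Col1a1 (16.4) and Acta2 (4.27). CCl4 library 2 was low for Rgs5 (6.73 FPKM), Hexa (20.9) and Cdkn1a (3.1), and high for Igf1 (167 FPKM), Fdft1 (34.1) and the urea cycle enzyme Ass1 (2095). The library given both treatments was high for Ubd (36.7 FPKM) and S100a9 (267). Western diet library 1 was high for Hsd3b5 (9.05 FPKM) and low for Fmo2 (0.833). The 5 libraries hold 3 different treatments, and with 1 or 2 libraries each a treatment and a single library cannot be told apart.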

How the results depend on the processing

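Counts of genes are given as higher and lower. Genes that passed (710 and 63) numbered 87 and 23 with Mup genes removed, 2191 and 81 with a common sum, 254 and 33 at a mean of at least 5 FPKM, 53 and 34 with median-of-ratios scaling, 776 and 118 in the 4-group fit, and 488 and 101 at an unadjusted p and a 2-fold change. Leaving out 1 library gave 3 to 1504 and 5 to 126. Shared genes (691 and 60) numbered 87 and 23, 2053 and 67, 250 and 32, 53 and 34, 647 and 95, and 363 and 77 in the same order, and 3 to 1498 and 5 to 121 without 1 library. Genes changed at least 2-fold in every library (43 and 26) numbered 26 and 14 with Mup genes removed, 68 and 30 with a common sum, 27 and 14 at a mean of at least 5 FPKM, 15 and 19 with median-of-ratios scaling and 220 and 28 with a pseudocount of 0.1. They numbered 3 to 282 and 5 to 41 without 1 library. Without control library 3 and CCl4 library 1 together there were 6 and 2 in all 3 counts. Genes shared in every scaling (52 and 23) numbered 3 to 688 and 4 to 89 without 1 library, an alternative chosen after seeing the data. The difference between diet and CCl4 (71 genes) gave 6 without the filter and 1 to 122 without 1 library. Fewer samples enter the fits without a library; the cause of the other shifts was not tested.

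Replicate numbers are shared by the groups, and deviations of libraries with the same number from their group means correlated at -0.279 to -0.014. In groups of 2 libraries these deviations are mirror images. The correlations therefore cannot decide whether the numbers pair the samples. With a replicate block 2 genes were higher and 3 lower, in all 3 counts.

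Among named genes none that passed turned its direction. Those that turned had not passed, and the values are log2 fold changes. With a common sum these were Apoa2 0.0835, Calr 0.101, Arg1 0.0871, mt-Cytb 0.00554 and Bhlhe40 0.0622. With median-of-ratios scaling they were Hsp90b1 -0.20005, Igf1 -0.265, Ass1 -0.0839, Vtn -0.19, Kng1 -0.0198, Cox4i1 -0.0391 and Hnf4a -0.196, and with Mup genes removed Hsp90b1 -0.0485, Igf1 -0.114, Vtn -0.038 and Hnf4a -0.0462. With the replicate block they were Calr 0.0191 and Vtn -0.0479. Without control library 3 and CCl4 library 1 they were Calr 0.0579, Vtn -0.0197, Dbp -0.0547 and Hnf4a -0.00633. Without 1 library the values ran from -0.293 to 0.179 for Apoa2, -0.103 to 0.0269 for Calr, -0.082 to 0.0965 for Igf1, -0.0887 to 0.355 for Ass1, -0.174 to 0.0356 for Arg1, -0.0381 to 0.205 for Vtn and -0.286 to 0.123 for Bhlhe40. Depth is unknown, and its limits cannot be given.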
